A study of Mus musculus with 6 samples.

Results

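The BATF and activator protein 1 (AP-1) transcription factor genes were examined in induced germinal centre B cells (iGBs). The genes were chosen by symbol, as the 10 rows of the count table named Batf, Batf3, Jun, Junb, Jund, Fos, Fosb, Fosl1, Fosl2 and Atf3, out of 39017 genes. Splenic B cells came from C57BL6/J mice of the genotypes Cg1-cre (Control) and Cg1-cre Prmt1f/f (Prmt1-null), with 3 mice in each group and 1 library per mouse. Both groups therefore carried the cre allele. This cre is driven from the Ighg1 locus, which is transcribed in activated B cells, so deletion follows activation and need not reach every cell. Each group held 2 females and 1 male, the male being Control replicate 1 and Prmt1-null replicate 3. The labels give no age, and the floxed allele without cre was not part of the comparison. All B cells were cultured for 3.5 days with 5 ng/ml IL-4, according to the labels, on 40LB cells, a fibroblast line made to supply CD40L and BAFF. The feeders were depleted with an antibody to H2K before total RNA was taken. In bulk RNA, fewer cells that express a gene and less RNA per cell cannot be told apart.

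AP-1 is a dimer of basic leucine zipper (bZIP) proteins. JUN proteins pair with themselves or with FOS proteins, whereas FOS proteins need a JUN partner to bind DNA. BATF and BATF3 have the bZIP but no transactivation domain of their own. They pair with JUN proteins, and in lymphocytes these dimers bind composite sites together with IRF4 or IRF8. BATF is required for class switching in B cells. Fos, Fosb, Jun, Junb and Atf3 are immediate early genes, whose transcription follows MAP kinase and calcium signals within minutes.

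The region just upstream of the start is shown for 4 members, because these stretches hold the cAMP response element (CRE) core or the related TGACATCA, to which bZIP dimers of ATF and JUN proteins can bind. The sequences are from RefSeq (GRCm38.p6, the build of the counts), which gave a promoter for 9 of the 10 members, and are written 5′ to 3′ along the gene. Capitals mark the match. The Batf stretch lies at chr12:85686470-85686668 on the plus strand and stops at base -52, where the GENCODE gene begins. The Fos stretch is chr12:85473640-85473889 on the plus strand. The Jun stretch is chr4:95052223-95052472 on the minus strand, and the Atf3 stretch is chr1:191183334-191183583 on the minus strand. The starts are those of RefSeq and differ from GENCODE for several members. The Atf3 stretch lies inside the GENCODE gene (chr1:191170296-191218039), and those of Batf3 and Fosl2, not shown, lie inside theirs. The bases before the Jund start end at chr8:70697738, short of the GENCODE start at 70698949.
Batf: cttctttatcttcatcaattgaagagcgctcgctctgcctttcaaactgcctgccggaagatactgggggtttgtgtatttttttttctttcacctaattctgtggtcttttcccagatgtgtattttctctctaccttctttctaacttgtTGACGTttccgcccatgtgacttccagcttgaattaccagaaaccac
Fos: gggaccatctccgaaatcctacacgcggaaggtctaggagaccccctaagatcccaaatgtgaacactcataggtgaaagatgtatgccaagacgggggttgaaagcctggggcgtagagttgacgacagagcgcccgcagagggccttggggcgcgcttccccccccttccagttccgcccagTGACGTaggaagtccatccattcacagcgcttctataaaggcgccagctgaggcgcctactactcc
Jun: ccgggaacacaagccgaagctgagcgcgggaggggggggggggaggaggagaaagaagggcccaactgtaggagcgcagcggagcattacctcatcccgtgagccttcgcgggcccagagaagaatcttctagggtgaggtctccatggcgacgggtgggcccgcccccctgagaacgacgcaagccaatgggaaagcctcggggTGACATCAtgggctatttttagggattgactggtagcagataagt
Atf3: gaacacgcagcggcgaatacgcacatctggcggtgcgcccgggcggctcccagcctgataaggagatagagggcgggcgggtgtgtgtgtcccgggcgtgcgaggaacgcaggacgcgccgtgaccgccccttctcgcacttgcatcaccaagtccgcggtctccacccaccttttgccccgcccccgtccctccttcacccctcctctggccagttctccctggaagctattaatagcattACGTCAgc
Both strands of the window from 250 bases before to 50 after each start were searched. The core TGACGT stood at bases -98 to -93 of Batf and -66 to -61 of Fos, and on the other strand, as ACGTCA, at -8 to -3 of Atf3. It was found in 7.51% of 32851 RefSeq promoters. TGACATCA stood at -45 to -38 of Jun and was found in 3.62% of promoters. These 2 motifs were searched after the letters had been seen. The AP-1 site TGANTCA (7.81% of promoters) and the full CRE TGACGTCA (1.79%), which contains the core, matched none of the 9 windows. Among other motifs, the E-box CACGTG (7.15%) and the STAT motif TTCNNNGAA (8.3%) each matched Batf3, and the NF-kB motif (8.46%) matched Fos, Fosb and Fosl2. The STAT6 motif TTCNNNNGAA (6.95%) and the CArG box (1.63%) matched no member. A match describes letters and not a bound site.

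Library totals ran from 45343250 to 62774232 counts, and 18268 genes passed the filter on low counts. Counts were normalized by TMM and are given as normalized counts, scaled to the mean library. Prmt1 was at 3964, 3924 and 4838 normalized counts in Control and at 1745, 1478 and 1477 in Prmt1-null iGBs. All Prmt1-null libraries were thus below all Control libraries, with a log2 fold change of -1.44 (SE 0.095, adjusted p = 1.11e-05 by edgeR's quasi-likelihood test). B cell markers were high in all libraries, with a summed level from 20519 to 22391 CPM (counts scaled to library size). Of 13 B cell markers, 8 estimates were above and 5 below 0, the groups did not overlap for 5, and 1 was called. This was Cr2 (ENSMUSG00000026616), the gene for complement receptors CD21 and CD35, whose mean was 8364 ± 520 in Control and 5993 ± 913 normalized counts in Prmt1-null iGBs (SD, n = 3, log2 fold change -0.48, adjusted p = 0.0241). Its call was lost without Control replicates 1 (adjusted p = 0.0652) or 2 (0.104) and without Prmt1-null replicates 2 (0.132) or 3 (0.108).

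Of the members, 9 passed the filter and Batf3 did not. Batf was the one member that passed an adjusted p under 0.05, and it was higher in Prmt1-null iGBs. The same test called 1.19% of all genes, with 0.591% higher and 0.602% lower in Prmt1-null iGBs. The groups did not overlap for 3 of the 9 members, namely Batf, Fosl1 and Fosl2, (33.3%), and for 19.9% of all genes tested. In all 3 the Prmt1-null values were the higher ones.

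**Figure D1:**
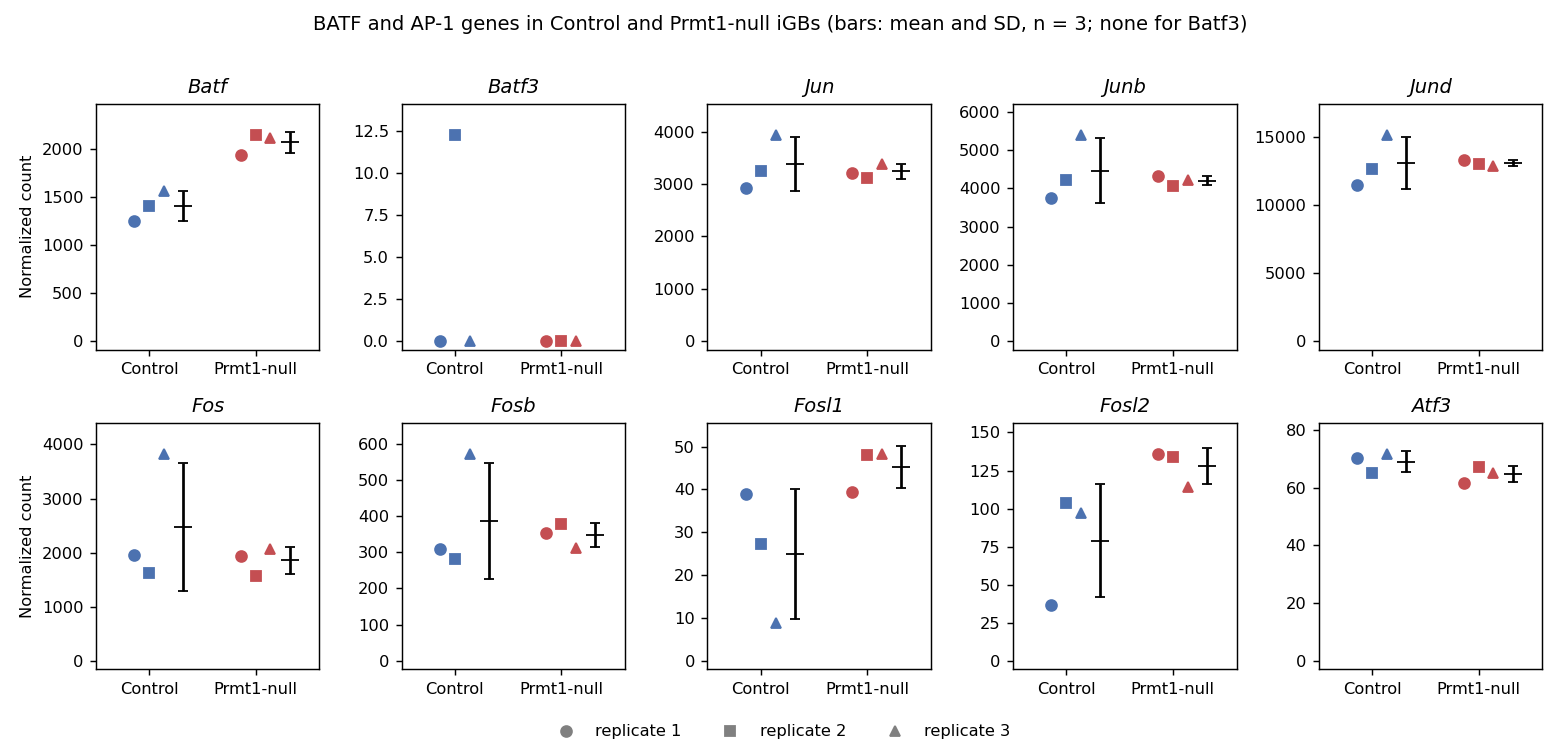
Normalized counts (y axis, linear from 0) of each member in the 3 Control (blue) and 3 Prmt1-null (red) libraries, with marker shapes for replicates 1 to 3 and black bars for mean and SD. Batf separates the groups with 1562 as the highest Control and 1943 as the lowest Prmt1-null value, while Control replicate 3 lies above all other libraries for Jun, Junb, Jund, Fos and Fosb.

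Batf (ENSMUSG00000034266, chr12:85686669-85709087, plus strand, 3 exons) was measured at 1248, 1411 and 1562 normalized counts in Control and at 1943, 2151 and 2115 in Prmt1-null iGBs. Every Prmt1-null library was above every Control library, and the gap between the groups was wider than the range within either. The means were 1407 ± 157 and 2069 ± 111 (SD, n = 3). The ratio was 1.47, with a 95% interval of 1.27 to 1.70, and the log2 fold change was 0.56 (SE 0.097, adjusted p = 0.0149 by edgeR's quasi-likelihood test). By p, Batf was number 67 of the 18268 genes. Its exons overlap those of no other annotated gene, so a strand setting of the counting, which the sources used here do not give, would not mix its reads with a neighbour's.

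The difference had the same sign within each sex. In females the mean was 1487 in Control and 2047 in Prmt1-null iGBs (2 against 2 mice), a log2 ratio of 0.46. In males it was 1248 against 2115 (1 against 1), a log2 ratio of 0.76. The genotype by sex term did not pass (log2 interaction 0.30, adjusted p = 0.692 by edgeR), but it rests on 1 male per genotype and does not show that the sexes are alike. Batf was called in 7 of 7 other analyses of the 6 libraries, with adjusted p from 2.56e-06 to 0.0216. With 5 libraries the call was kept without Control replicate 1 (adjusted p = 0.0337) and without Control replicate 3 (0.00498). It was lost without Control replicate 2 (0.0718) and without Prmt1-null replicates 1 (0.0614), 2 (0.102) or 3 (0.0723), and the log2 fold change stayed between 0.48 and 0.64.

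Batf3, the close paralog of Batf known from dendritic cells, had 14 raw counts in Control replicate 2 and 0 in each of the other 5 libraries. A count of 0 allows up to 2.77 to 3.64 normalized counts in those libraries. With counts in 1 library, no difference was detectable at this depth.

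The JUN genes gave no detectable difference. Jun (chr4:95049034-95052222) encodes the founding AP-1 subunit and was at 2931, 3255 and 3941 normalized counts in Control and 3219, 3112 and 3388 in Prmt1-null iGBs. The groups overlapped, and the log2 fold change was -0.06 (95% interval -0.26 to 0.14, adjusted p = 0.832). Junb (chr8:84974484-84978718), a weaker activator than c-JUN that is abundant in lymphocytes, was at 3762, 4230 and 5407 in Control and 4325, 4075 and 4224 in Prmt1-null iGBs. All Prmt1-null values fell inside the Control range, with a log2 fold change of -0.09 (-0.30 to 0.13, adjusted p = 0.778). Jund (chr8:70698949-70700616), which is expressed broadly and depends less on stimulation, was at 11501, 12674 and 15206 in Control and 13343, 13033 and 12920 in Prmt1-null iGBs. Its log2 fold change was -0.003 (-0.19 to 0.18, adjusted p = 0.992), again with the Prmt1-null values inside the Control range. For all 3 genes, the interval leaves out a change in either direction as large as the estimate for Batf. Each of them shares exon bases with a gene on the opposite strand (Junos, Prdx2 and Gm11175), so reads of the partner may be counted if strand was not used.

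The FOS genes split into a more and a less abundant pair. Fos (chr12:85473890-85477273), the classical immediate early partner of JUN, was at 1962, 1630 and 3820 normalized counts in Control and at 1936, 1571 and 2064 in Prmt1-null iGBs. Control replicate 3 stood alone, and the other 5 libraries, of both groups, lay between 1571 and 2064. The log2 fold change of -0.41 (95% interval -0.90 to 0.08, adjusted p = 0.47) became 0.05 without Control replicate 3 (adjusted p = 0.886). Without the filter on low counts, edgeR called Fos (log2 fold change -0.41, adjusted p = 0.000773), and none of the 6 other analyses of all libraries did. Fosb (chr7:19302696-19310051), a paralog of Fos that is also induced early, was at 308.6, 280.9 and 570.7 in Control and 353.4, 378.0 and 311.0 in Prmt1-null iGBs. The same Control library was the highest. The log2 fold change of -0.15 (-0.64 to 0.33, adjusted p = 0.824) changed sign to 0.24 without it.

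Fosl1 and Fosl2 encode FRA-1 and FRA-2, FOS relatives that lack the transactivation domain of c-FOS and tend to accumulate later after a stimulus. Fosl1 (chr19:5447547-5455946) was at 38.88, 27.22 and 8.814 normalized counts in Control and 39.49, 47.94 and 48.21 in Prmt1-null iGBs. The groups met within less than 1 normalized count, and the estimate was wide, at 0.86 on the log2 scale (95% interval -0.31 to 2.02, adjusted p = 0.533). Fosl1 overlaps Ccdc85b on the opposite strand. Fosl2 (chr5:32135801-32157842) was at 36.45, 103.6 and 96.96 in Control and 135.7, 133.7 and 114.4 in Prmt1-null iGBs. Control replicate 1 was the lowest by a wide margin, and the log2 fold change was 0.68 (-0.04 to 1.41, adjusted p = 0.405). Raw counts behind these values were 8 to 52 for Fosl1 and 30 to 145 for Fosl2, and both intervals take in 0 as well as the estimate for Batf. The spread among Control libraries was wide, with a coefficient of variation of 60.7% for Fosl1 and 46.8% for Fosl2, and the latter was 9.19% among Prmt1-null libraries. The Fosl1 estimate became 0.46 without Control replicate 3 and 1.30 without Control replicate 1, and that of Fosl2 became 0.35 without Control replicate 1. Neither gene was called with any library left out.

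Atf3, a stress-induced bZIP gene whose product pairs with JUN proteins or with itself and often represses, was the member with the closest replicates in Control. It was at 70.47, 64.97 and 71.62 normalized counts in Control and 61.76, 67.29 and 65.22 in Prmt1-null iGBs (chr1:191170296-191218039). The groups overlapped, and the log2 fold change was -0.09 (95% interval -0.75 to 0.57, adjusted p = 0.929).

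**Figure D2:**
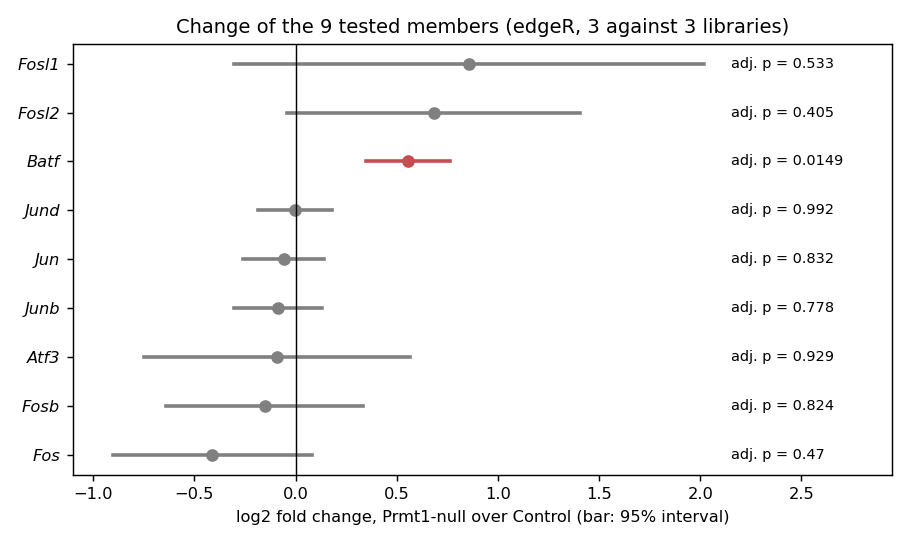
Log2 fold change of Prmt1-null over Control (x axis) for the 9 tested members, with the 95% interval as a bar and the adjusted p of edgeR's quasi-likelihood test at the right. Of the 9 intervals, those of 8 members cross 0 and that of Batf (red), from 0.35 to 0.76, does not.

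Levels of different genes were compared per length, as CPM per kb of exon. Averaged over all 6 libraries, Jund was the highest at 141.8 CPM per kb, followed by Junb (33.99), Batf (22.29), Jun (18.7) and Fos (16.59). The other members were far lower, with Fosb at 1.061, Atf3 at 0.56, Fosl1 at 0.3113, Fosl2 at 0.1927 and Batf3 at 0.02313. Neighbours in this order whose ranges over libraries overlapped were Batf and Jun, Jun and Fos, Fosl1 and Fosl2, and Fosl2 and Batf3. By group means, Batf stood below Jun in Control and above it in Prmt1-null iGBs. In Control iGBs the level of Batf was 18.05 ± 2.02 against 19.09 ± 2.92 for Jun, with overlapping ranges. In Prmt1-null iGBs it was 26.54 ± 1.42 against 18.32 ± 0.786 CPM per kb for Jun (SD, n = 3). Fos was above Batf in Control replicate 3 (29.29 against 20.04) and below it in the other 5 libraries. Batf was above Jun in 3 of 6 libraries, which were the Prmt1-null ones.

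The summed level of the 10 members did not separate the groups, at 235.1 ± 40.6 in Control and 235.9 ± 3.09 CPM per kb in Prmt1-null iGBs (two-sided exact permutation test, p = 1). Within this sum, the share of Batf was 7.871%, 8.184% and 7.134% in Control and 10.46%, 11.87% and 11.44% in Prmt1-null iGBs. The shares did not overlap and differed by 3.53 percentage points (exact permutation test, p = 0.1). This is the smallest p that the 20 arrangements of 3 against 3 libraries can give, so no such test could pass 0.05. Shares are computed inside 1 library and do not depend on scaling between libraries. The share of Junb was 14.86 ± 0.316% in Control and 13.98 ± 0.244% in Prmt1-null iGBs, a difference of -0.879 percentage points without overlap (exact p = 0.1). The shares of Jund (60.55 ± 1.8% and 60.04 ± 0.952%, exact p = 0.6), Jun (8.136 ± 0.195% and 7.765 ± 0.278%, exact p = 0.2) and Fos (7.826 ± 2.42% and 6.031 ± 0.768%, exact p = 0.3) overlapped. Shares of 1 sum are not independent, since a larger share of one gene lowers those of the rest.

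Set against its possible partners, Batf was at 0.09392, 0.09596 and 0.08748 of the summed JUN genes in Control and at 0.1269, 0.1448 and 0.1413 in Prmt1-null iGBs, by CPM per kb. This ratio was relatively steadier than the counts themselves among Control libraries, but not among Prmt1-null libraries. The groups lay clearly apart (0.09246 ± 0.00442 against 0.1377 ± 0.00949, exact p = 0.1). Against the summed FOS genes, which compete for JUN partners, Batf was at 0.9789, 1.316 and 0.6424 in Control and 1.513, 1.997 and 1.562 in Prmt1-null iGBs (exact p = 0.1). The groups did not overlap here either. FOS genes relative to JUN genes were at 0.1017 ± 0.032 in Control and 0.08229 ± 0.00909 in Prmt1-null iGBs and overlapped (exact p = 0.4). These are ratios of RNA and say nothing of the proteins or dimers.

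**Figure D3:**
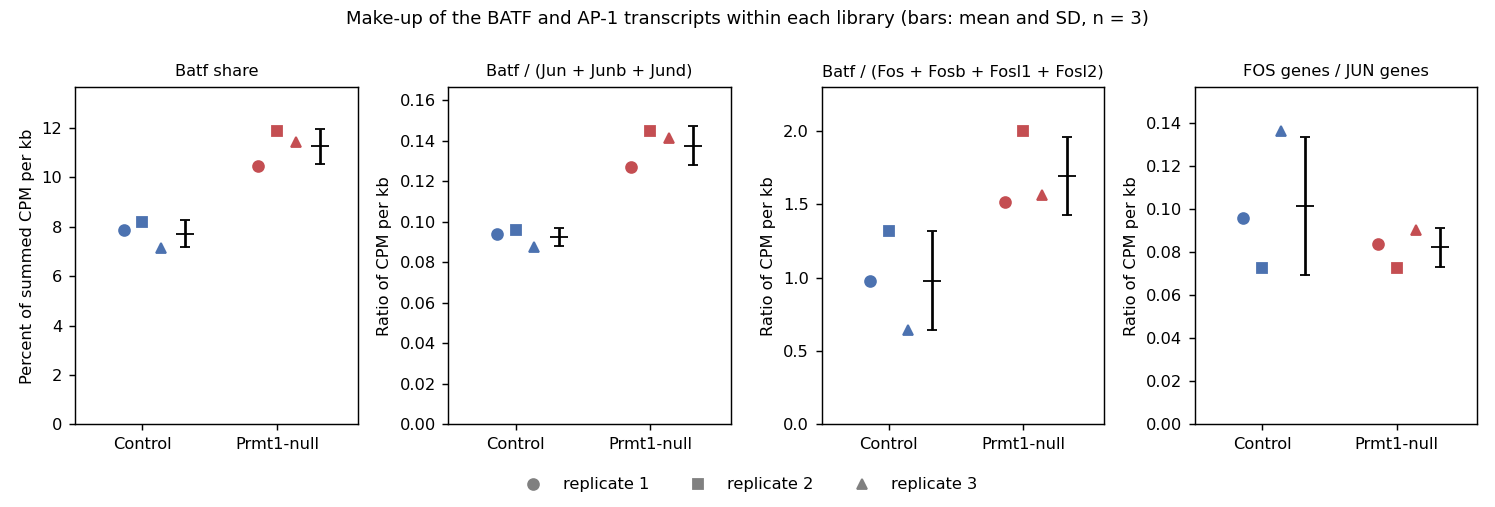
Batf as a percent of the summed CPM per kb of the 10 members, and the ratios of Batf to the JUN genes, Batf to the FOS genes and FOS to JUN genes (y axes, from 0), in each Control (blue) and Prmt1-null (red) library, with mean and SD (n = 3). The first 3 panels show groups that do not overlap, as with the Batf share of at most 8.184% in Control and at least 10.46% in Prmt1-null iGBs, and the fourth shows overlapping groups.

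The members were also more spread in one group. The coefficient of variation was larger among Control than among Prmt1-null libraries for 9 of 9 members and for 60.2% of all tested genes. Control replicate 3 had the highest normalized count for 6 of 9 members (66.7%), for 19 of 40 other immediate early genes (47.5%) and for 16.7% of all tested genes. Egr1, an early gene of the serum response, showed it with 18711 normalized counts in that library against 13626 and 12016 in the other Control libraries. Dusp1, a MAP kinase phosphatase that is itself induced early, was at 2196 against 1285 and 1485. Gadd45a, a growth arrest gene, was at 411.0 against 246.6 and 205.4. These 3 examples were picked with their values in view. What part the early response has in the members' values was not tested. Without Control replicate 3, the log2 fold changes of Jun (0.07), Junb (0.08), Jund (0.12), Fos and Fosb were above 0, none passed the test, and that of Batf was 0.64.

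Estimates for the JUN genes had opposite signs in the 2 sexes. The log2 ratio for Jun was -0.19 between females and 0.21 between the single males, for Junb -0.20 and 0.17, and for Jund -0.08 and 0.17. For Fos it was -0.64 and 0.07. Control replicate 3 is one of the 2 Control females. The genotype by sex terms, with the same limit, had adjusted p of at least 0.589 by edgeR for all 9 members.

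Related genes were taken from 7 lists of bZIP partners, IRF factors, the MAP kinase route to AP-1 and genes linked to AP-1, of which 139 distinct genes were tested. Of these, 2 were called higher and 1 lower in Prmt1-null iGBs.

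**Figure D4:**
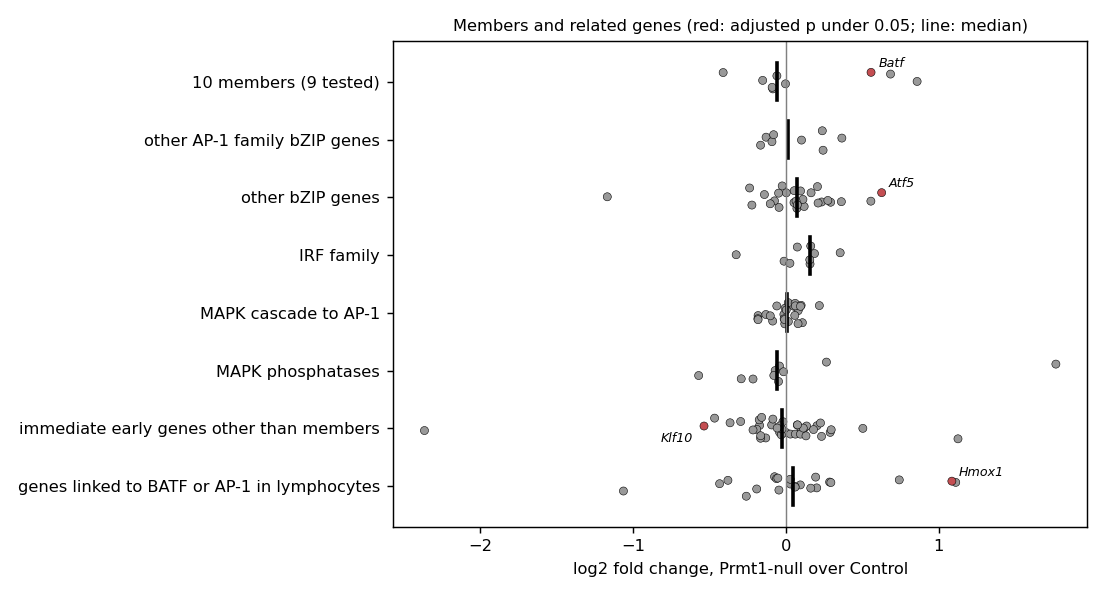
Log2 fold change of Prmt1-null over Control (x axis) for each tested gene (point) of the members and of the 7 lists (rows), with red for an adjusted p under 0.05 and a black line for the median. Medians lie between -0.06 and 0.16, and the named red points are Batf, Atf5, Klf10 and Hmox1.

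Other genes of the AP-1 family, which encode further JUN and FOS partners such as the JDP, BATF2 and MAF proteins, gave no call among 8 tested of 11, with 4 estimates above and 4 below 0 and a median log2 fold change of 0.01. The median over all tested genes was -0.000816. Jdp2 encodes a repressive partner of JUN and lies between Fos and Batf. It was at 207.8, 181.7 and 203.8 normalized counts in Control and 242.0, 273.8 and 247.7 in Prmt1-null iGBs. The groups did not overlap, and the log2 fold change of 0.37 (SE 0.168, adjusted p = 0.36) did not pass. Mafg, a small MAF protein gene, had a log2 fold change of 0.24 (SE 0.113, adjusted p = 0.371).

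Among 27 tested of 32 other bZIP genes, 1 was called higher and 0 lower, with 18 estimates above 0 and a median of 0.07. The called gene was Atf5, which encodes an ATF4-related stress factor. It was at 1032, 1241 and 1616 normalized counts in Control and 1907, 2161 and 1935 in Prmt1-null iGBs. These groups did not overlap, as with Batf, and the log2 fold change was 0.63 (SE 0.133, adjusted p = 0.0392). The call held in 1 of 6 analyses with a library left out, the one without Control replicate 3 (adjusted p = 0.00244). Without Control replicates 1 or 2 the adjusted p was 0.0735 or 0.165, and without Prmt1-null replicates 1, 2 or 3 it was 0.141, 0.201 or 0.115. Atf5 lies 159 kb from Prmt1 on chromosome 7, and its exons overlap Nup62 and Il4i1 on the opposite strand, so its count is uncertain. Il4i1 was itself called higher, at 11572 ± 791 and 17023 ± 421 normalized counts (log2 fold change 0.56, adjusted p = 0.00207), and Nup62 was not called (0.10, adjusted p = 0.61). Atf4 itself (log2 fold change 0.23, adjusted p = 0.0865) and Xbp1, a plasma cell and unfolded protein response factor (0.29, adjusted p = 0.0571), did not pass, and both had groups without overlap.

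The IRF family, which supplies the partners of BATF on composite sites, gave no call among 9 tested of 9. There were 7 estimates above and 2 below 0, and the median was 0.16. Irf4, the main lymphocyte partner, was at 29739, 25821 and 25920 normalized counts in Control and 30208, 28852 and 32099 in Prmt1-null iGBs. Its groups overlapped, with a log2 fold change of 0.16 (SE 0.072, adjusted p = 0.337). Irf8, the other partner, had a log2 fold change of 0.07 (adjusted p = 0.73). Irf7, an interferon response gene, had one of -0.33 (adjusted p = 0.304). So the gene for BATF was called, whereas those for its IRF and JUN partners were not. The ratio of Batf to the JUN genes is given above, and a difference between Batf and the IRF genes was not tested.

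The kinases that carry signals to AP-1 gave no call among 26 tested of 27, with 13 estimates on each side of 0 and a median of -0.001. The smallest p was that of Mapk14, the gene for p38 alpha, with a log2 fold change of -0.18 (SE 0.061, adjusted p = 0.186) and groups that did not overlap. Map3k8, the gene for the kinase TPL2, had the same log2 fold change of -0.18 (adjusted p = 0.394). MAP kinase phosphatases gave no call among 10 of 10, with 8 estimates below 0 and a median of -0.06. Dusp6, which acts on ERK and is induced by it, was at 2418 ± 205 and 1974 ± 85.8 normalized counts (log2 fold change -0.29, adjusted p = 0.113). Dusp9 was at 12.15, 16.68 and 34.16 in Control and 75.94, 72.83 and 66.17 in Prmt1-null iGBs. Its groups did not overlap, and its log2 fold change of 1.77 (SE 0.454) missed the threshold at an adjusted p of 0.0829.

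Immediate early genes outside the family had 1 call lower and 0 higher among 40 tested of 43, with 19 estimates above and 21 below 0 and a median of -0.02. The called gene was Klf10, a TGF-beta inducible zinc finger repressor. It was at 803.1, 815.6 and 766.9 normalized counts in Control and 556.9, 490.4 and 598.4 in Prmt1-null iGBs. Here the Control libraries were the closely spaced ones, and the log2 fold change was -0.54 (SE 0.118, adjusted p = 0.0447). The call was lost without each library in turn, with adjusted p of 0.0832, 0.167 and 0.0519 without Control replicates 1, 2 and 3 and of 0.175, 0.252 and 0.0811 without Prmt1-null replicates 1, 2 and 3. The summed level of the list overlapped between the groups, from 4466 to 5194 CPM in Control and 4584 to 4925 CPM in Prmt1-null iGBs (exact permutation test, p = 0.9).

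Genes linked to BATF or AP-1 in lymphocytes gave 1 call higher and 0 lower among 22 tested of 25, with 13 estimates above 0 and a median of 0.04. The called gene was Hmox1, which encodes heme oxygenase 1 and responds to BACH and NRF2 factors as well as to AP-1. It was at 634.2, 516.2 and 502.4 normalized counts in Control and 979.1, 1396 and 1126 in Prmt1-null iGBs. The groups did not overlap, with a log2 fold change of 1.09 (SE 0.144, adjusted p = 0.00368), and the call held without each library in turn. Prdm1, the gene for BLIMP1, had a log2 fold change of 0.29 (adjusted p = 0.384), Bcl6 one of -0.19 (adjusted p = 0.201) and Bach2, a bZIP repressor of plasma cell genes, one of -0.22 (adjusted p = 0.124). Myc (0.03, adjusted p = 0.902), Cd44 (0.06, adjusted p = 0.789) and Ccnd1 (-0.08, adjusted p = 0.908), which are known AP-1 targets in other cells, did not pass either. The genes named here beside Hmox1, and Atf4, Xbp1 and Irf8 above, were picked with their values in view, and Bach2 is from the list of other bZIP genes.

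Batf and Fos are neighbours in the genome, with 209 kb between the end of Fos and the start of Batf. Within 500 kb on either side of Batf, 15 genes were tested and Batf was the only call. The next genes on each side, Jdp2 and Mfsd7c, did not pass (log2 fold change 0.37 and 0.46, adjusted p = 0.36 and 0.745), and Fos had an estimate of the opposite sign. Acyp1, an acylphosphatase gene, had the second smallest p in the window, with a log2 fold change of -0.64 (adjusted p = 0.111) and groups that did not overlap. The window was chosen after values had been seen.

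**Figure D5:**
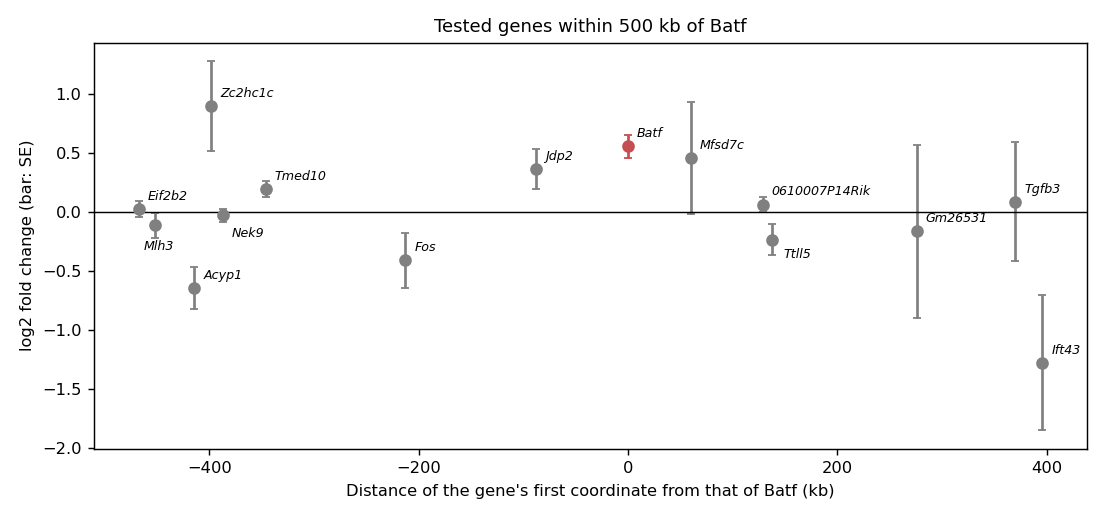
Log2 fold change of Prmt1-null over Control (y axis, bar for SE) of the 15 tested genes within 500 kb of Batf on chromosome 12, against the distance of each gene's first coordinate from that of Batf in kb (x axis). Batf (red), at 0.56, is the only gene past an adjusted p of 0.05, with estimates on both sides of 0 among its neighbours.

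The genes with the pattern most like Batf were found by Pearson's r of log2 CPM over the 6 libraries, as a description. Slc7a5, which encodes the light chain of a large neutral amino acid transporter, had an r of 0.9978 with Batf and a log2 fold change of 0.44 (adjusted p = 0.00678). Its call was lost without Prmt1-null replicate 2 (adjusted p = 0.0666). Gm22133 had an r of 0.9972, but it lies inside an exon of Ftl1 on the same strand and its count is uncertain. The next was ZEB2_AS1_2 with an r of 0.996. As many as 157 tested genes had an r over 0.95 with Batf, and the 6 libraries share the group difference, so these values single out no gene.

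Marker genes of other states and cells were set beside the Batf result. Germinal centre markers summed to 1454 to 1586 CPM in Control and 1646 to 1762 CPM in Prmt1-null iGBs (exact permutation test, p = 0.1). All 10 listed genes had at least 10 counts in every library. The groups did not overlap for 6 of these 10 genes, against 19.9% of all tested genes. The sum was higher in Prmt1-null iGBs, but 5 single estimates were above and 5 below 0. The median log2 fold change was -0.004, with 1 call, which was lower. This was Mybl1, a MYB family factor gene, at 1398 ± 79.5 and 989.3 ± 123 normalized counts (log2 fold change -0.50, adjusted p = 0.0456). Its call was lost without each library in turn, with adjusted p from 0.0767 (without Control replicate 1) to 0.169 (without Prmt1-null replicate 1), and also with chromosome Y genes kept (0.0571). Il21r and Gpr183, the most abundant per length, had log2 fold changes of 0.24 and 0.24 (adjusted p = 0.139 and 0.0821). Gpr183 guides B cells outside the germinal centre and is known to be switched off in germinal centre B cells, and without it the sum was 1120 to 1225 CPM in Control and 1251 to 1360 CPM in Prmt1-null iGBs (exact p = 0.1). Plasma cell markers, of which 9 of 10 were in the table and 8 had at least 10 counts in every library, summed to 1222 to 1287 CPM and 1399 to 1496 CPM (exact p = 0.1). Of 8 tested, 7 estimates were above and 1 below 0, with a median log2 fold change of 0.27, and the groups did not overlap for 3. Among them Derl3, an endoplasmic reticulum degradation gene, was called (log2 fold change 0.59, adjusted p = 0.0166), whereas Tnfrsf17 was at 0 to 3.781 normalized counts. The Derl3 call was lost without Control replicate 2 (adjusted p = 0.0546) and without Prmt1-null replicates 2 (0.0941) or 3 (0.0811). T and NK cell markers summed to 36.36 to 39.23 CPM and 39.44 to 47.11 CPM (exact p = 0.1), with 5 of 12 genes at 10 counts or more in every library, Cd3d between 0 and 16.53 and Cd4 between 0 and 22.83 normalized counts. Of 10 tested, 8 estimates were above and 2 below 0, with a median of 0.41. The highest counts of this list, over all libraries, were those of Lck (1244 to 1482 normalized counts), Cd5 (290.4 to 451.6) and Gzmb (240.6 to 476.9). The sum therefore rests mainly on these genes and less on Cd3d or Cd4. Fibroblast markers of the feeders (35.34 to 45.92 CPM over all libraries, exact p = 0.3) and myeloid markers (78.73 to 89.07 CPM, exact p = 0.2) overlapped between the groups. Among 15 tested feeder markers, 11 estimates were above and 4 below 0, with a median of 0.22, no call and 3 without overlap. Col1a1 was higher in all Prmt1-null (429.6 to 546.4 normalized counts) than in all Control libraries (331.7 to 396.0). Sparc was too, at 97.2 to 165.4 against 65.61 to 91.31. Acta2 went the other way, at 31.34 to 40.65 in Prmt1-null and 47.38 to 86.92 in Control libraries. Among 8 tested myeloid markers, 2 estimates were above and 6 below 0, with a median of -0.15 and no call. Postn and Lum were at 0 in every library. The part of these marker lists in the Batf difference was not tested.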

How the data were processed

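RNA-seq counts of 6 iGB libraries were analysed. According to the study and the submitters' processing notes, the authors trimmed reads with Trimmomatic 0.32, aligned them to mm10 (GRCm38) with STAR 2.3.0e and counted primary alignments with no more than 2 locations over Ensembl exons with featureCounts 1.4.4. RNA had been depleted of ribosomal RNA and prepared with a stranded kit. The strand setting of the counting is not given in the sources used here. The authors deposited these exon counts for each gene without normalizing them. Each of the 6 value columns of the table was matched to a sample, and 0 were left over. The study's methods give a lower IL-4 concentration than the labels.

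Genes of chromosome Y (398) were left out, as by the authors. Low counts were removed with filterByExpr (minimum count 10). Counts were tested with edgeR 4.0.16 (TMM, quasi-likelihood test, R 4.3.3) and Benjamini-Hochberg adjustment over 18268 genes, and 218 passed an adjusted p of 0.05 (108 higher, 110 lower). All adjusted p in the text are from this fit unless another is named. SEs and 95% intervals were derived from the quasi-likelihood F statistic. The biological coefficient of variation was 0.154. The smallest detected level, 3 counts, is 0.0478 to 0.0662 CPM, which covers counting error only, since reads carried no molecular identifiers. Exon lengths were taken from GENCODE M21 by gene ID (37693 genes) or symbol (803), with 521 unmatched. Single values were compared by two-sided exact permutation tests.

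The genotype replicates are separate mice. Alternatives were DESeq2 1.42.0, limma-voom (3.58.1), median-of-ratios size factors, no filter, the replicate number as a block, sex as a covariate, chromosome Y genes kept, shares not divided by length, and each library left out. The scripts were tested on simulated data. The members and lists were chosen with earlier results of these data known. Named genes were all members, Prmt1, from each of the 7 lists of related genes those called and otherwise the 2 with the smallest p, the 3 genes most correlated with Batf, and the 2 highest genes of each marker list (CPM per kb), besides those named after their values were seen, among them the called markers Cr2, Mybl1 and Derl3. By CPM per kb, the 2 highest were Cd74 and Pou2af1 for B cells (log2 fold change 0.09 and -0.06) and Il21r and Gpr183 for germinal centre. For plasma cells they were Mzb1 and Xbp1 (0.08 and 0.29), and for feeders Thy1 and Tagln (0.03 and -0.42). For T and NK cells they were Lck and Gzmb (0.09 and 0.39), and for myeloid cells Cst3 and Cd68 (-0.07 and -0.07). None of the genes in these pairs passed. The values of 1 gene among those linked to BATF are not reported here.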

Additional observations from a re-analysis of the deposited data

How the results depend on the processing

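For the members, their shares and the counts of calls, 16 recomputed values changed sign, Batf lost its call in 4, Fos gained one in 1, and 36 counts moved by over 1.5 times. Batf kept its sign everywhere, with 4 of 6 calls lost on leaving out 1 library (log2 fold change 0.481 to 0.638). Leaving out 1 library gave ranges of -0.147 to 0.067 for Jun, -0.191 to 0.075 for Junb, -0.086 to 0.116 for Jund, -0.641 to 0.05 for Fos and -0.343 to 0.239 for Fosb. All of these took the other sign without Control replicate 3, and Jund also without Prmt1-null replicate 2 or 3 (0.006 in each). The Jund estimate, near 0, was also above 0 with limma-voom (0.006), no filter (0.001), the replicate block (0.006) and sex as a covariate (0.002). The count of members called was 0 to 1 with a library left out and 2 without the filter, which added Fos (-0.407). The cause was not tested.

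Over all genes, 218 calls became 709 with DESeq2, 710 without the filter and 31 to 350 with a library left out, the lowest without Prmt1-null replicate 2 and the highest without Control replicate 3. Calls among other bZIP genes were 5 with DESeq2, 4 without the filter, 2 with limma-voom or sex, and 0 to 2 with a library left out. Among MAP kinase phosphatases there were 1 with DESeq2, 2 without the filter and 0 to 2 with a library left out. Among immediate early genes there were 2 with DESeq2, 3 without the filter, 0 with the replicate block and 0 to 1 with a library left out, where the 1 call, without Control replicate 3, was Tnfaip3, higher, and not Klf10. Among genes linked to BATF or AP-1, DESeq2 called 2, and 1 to 2 were called with a library left out. The Jund share difference of -0.511 percentage points became 0.387 without division by length and ran from -1.52 to 0.201 with a library left out (0.0381 without Prmt1-null replicate 3). That of Fosb ran from -0.0869 to 0.023 and that of Atf3 from -0.0381 to 0.000229.

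Libraries with the same replicate number share no mouse, and their deviations correlated at -0.0747, 0.0445 and -0.0775. The largest correlation was 0.127, between Control replicate 1 and Prmt1-null replicate 3, which are the males. With 3 libraries per group, these values show no pairing by number but cannot settle whether there was one. The replicate block gave 152 calls over all genes and left Batf called (0.561, adjusted p = 0.0178 by edgeR), and Klf10 and Mybl1 lost their calls (adjusted p = 0.0821 and 0.0907). A library left out moved Fosl1 between 0.459 and 1.303 and Fosl2 between 0.353 and 0.929. Fosl1, Fosl2 and Atf3, the tested members with the fewest counts, had the widest intervals.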
